A study of Homo sapiens with 12 samples.

Results

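The 10 genes for chains of fibrillar collagens were followed across SW872 cells, a human liposarcoma cell line: COL1A1, COL1A2, COL2A1, COL3A1, COL5A1, COL5A2, COL5A3, COL11A1, COL24A1 and COL27A1. They were taken by symbol from a table of 58735 genes, and each symbol matched 1 row. RNA was sequenced from 12 libraries, 2 for each of 6 groups. Cells stably expressed either TAZ-CAMTA1 (TC) or YAP-TFE3 (YT), the fusion proteins of epithelioid hemangioendothelioma, a vascular sarcoma. Each line also carried a short hairpin RNA, non-targeting (shNT), against YEATS2 (shYEATS2) or against ZZZ3 (shZZZ3). YEATS2 and ZZZ3 are subunits of the ATAC complex, a histone acetyltransferase complex. The groups are therefore TC shNT, TC shYEATS2, TC shZZZ3, YT shNT, YT shYEATS2 and YT shZZZ3, and they address whether loss of an ATAC subunit alters transcripts under each fusion protein. No group was free of both a fusion protein and a hairpin, so the values describe hairpin-carrying fusion lines only.

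Fibrillar collagens are the rod-shaped proteins that assemble into the banded fibres of connective tissue. Each molecule is a triple helix of alpha chains, and the chains are hydroxylated, folded, secreted and trimmed of their propeptides before they join a fibril. Type I collagen dominates skin, bone and tendon, type III accompanies it in elastic tissues, and type II forms the fibrils of cartilage. Type V and type XI chains sit inside these fibrils and limit their width. Mesenchymal cells and the sarcomas that resemble them are the usual sources.

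Several properties of the lines bear on every value below. The fusion proteins were introduced by retrovirus into pools of cells selected with G418, not into clones, and the study lists several hairpins for YEATS2 and for ZZZ3 without saying which of them the sequenced lines carried, so none is printed. For other RNA libraries of the same study, lines containing CAMTA1 were collected before confluence and the other lines after it. Whether TAZ-CAMTA1 lines were among the former is not stated. The culture density of the knock-down lines is not stated, so fusion protein and density cannot be told apart in comparisons of YT with TC. Per the study the libraries of a group are biological duplicates; how their cultures were kept apart is not stated, and p-values measure the spread between them. In bulk RNA, fewer cells of a kind and less RNA per cell cannot be told apart.

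The libraries held 17451893 to 29294805 counts. The YEATS2 transcript was 113 and 123 CPM (counts scaled to a common library size, TMM) with shNT in the TC line, where shYEATS2 left 45.5 and 35.1 CPM. In the YT line it was 115 and 117 CPM with shNT, against 33.9 and 38.5 CPM with shYEATS2. The log2 change was -1.54 in TC (adjusted p = 0.0138, edgeR's quasi-likelihood test with Benjamini-Hochberg adjustment) and -1.68 in YT (1.04e-04). The TC call was lost in 3 of 21 alternative analyses, with only the groups compared in the fit (0.150) and without YT shNT replicate 1 (0.0541) or 2 (0.0533), and it held without TC shYEATS2 replicate 1 (-1.76) or 2 (-1.39). For ZZZ3, the study reports knock-down of the protein in SW872 TAZ-CAMTA1 cells by western blot. In the sequenced lines the ZZZ3 transcript was less clearly reduced by its hairpin. It stood at 25.6 and 60.4 CPM in TC shNT and 21.9 and 22.7 CPM in TC shZZZ3. It changed there by -0.94 on the log2 scale (-1.45 to -0.22 over 21 alternative analyses) and did not pass (adjusted p = 0.450, same test). In the YT line it was 71.2 and 49.1 CPM in shNT and 12.6 and 29.6 CPM in shZZZ3 (log2 change -1.51, adjusted p = 0.0453 by the same test), a call lost in 12 of 21 alternative analyses, among them those without either YT shNT library (0.296 and 0.117), YT shZZZ3 replicate 1 (0.225) or any of the 6 libraries of TC shYEATS2, TC shZZZ3 and YT shYEATS2 (0.0666 to 0.0922). ZZZ3 was also lower with the YEATS2 hairpin in the YT line, at 31.4 and 30.7 CPM, without passing (log2 change -0.95, adjusted p = 0.130, same test). With that hairpin in the TC line the log2 change of ZZZ3 was -0.05. Between YT shZZZ3 and YT shYEATS2 the ZZZ3 difference did not pass (-0.56, adjusted p = 0.504, same test). Of the cell type markers, VIM, the filament protein of mesenchymal cells, reached 696 to 2152 CPM, and the 6 mesenchymal markers summed to 1888 to 3381 CPM. The summed epithelial markers were 3.24 to 16.8 CPM, leukocyte markers at most 0.765 CPM, osteoblast markers at most 0.352 CPM (IBSP at 0 in every library) and skeletal muscle markers at most 7.32 CPM. On the 4 endothelial markers the 2 TC shYEATS2 libraries stood apart from each other, with sums of 57.4 CPM in replicate 1 and 266 CPM in replicate 2. The other 10 libraries lay at 40.6 to 151 CPM. The collagen calls that compare TC shYEATS2 with another group are therefore given with and without each of its libraries. Beyond these markers, the 2 libraries differed more within TC shNT and YT shZZZ3 than within TC shYEATS2. Their chi-square per degree of freedom was 95.7, 86.2 and 48.3.

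The upstream 250 bases were found for 5 of the 10 genes in RefSeq sequence of build GRCh38.p14: COL5A1, COL5A3, COL11A1, COL24A1 and COL27A1. COL5A1 and COL5A3 encode chains of the same collagen and behaved differently here, so both are shown, 5′ to 3′ on the gene's own strand and ending at the base before the annotated start. The COL5A1 stretch lies at chr9:134641553-134641802 on the plus strand and the COL5A3 stretch at chr19:10010505-10010754 on the minus strand. Capitals mark the matches to CCAAT or GGGCGG on either strand.
COL5A1: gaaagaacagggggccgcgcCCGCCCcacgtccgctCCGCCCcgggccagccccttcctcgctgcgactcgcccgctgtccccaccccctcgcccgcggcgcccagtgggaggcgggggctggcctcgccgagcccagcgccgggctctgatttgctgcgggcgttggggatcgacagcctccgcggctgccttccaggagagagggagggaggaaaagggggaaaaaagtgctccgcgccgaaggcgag
COL5A3: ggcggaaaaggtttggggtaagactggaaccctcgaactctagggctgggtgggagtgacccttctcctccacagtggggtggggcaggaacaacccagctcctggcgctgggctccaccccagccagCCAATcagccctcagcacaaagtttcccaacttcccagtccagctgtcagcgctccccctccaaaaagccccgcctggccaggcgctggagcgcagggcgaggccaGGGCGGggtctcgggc
The COL5A1 stretch was 74.0% G or C and the COL5A3 stretch 66.0%. A CCAAT box, a common promoter element, was found once upstream of COL5A3, its first base 122 bases before the start, and not upstream of COL5A1. GGGCGG, the GC box, was found 2 times upstream of COL5A1 and 1 time upstream of COL5A3. Over all 27305 upstream stretches of the same length, 33.0% held CCAAT and 42.3% held GGGCGG. Neither TATAAA (in 11.1% of all stretches), nor GGAATG, the core bound by TEAD factors (11.9%), nor CACGTG, an E-box of the TFE3 family (6.5%), was found in any of the 5 stretches. Both strands were searched, and none of the matches shown overlaps another. A match is a description of letters and not a binding site.

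A gene was tested where its mean over the 12 libraries was at least 5 counts, which 18415 genes passed. Of the 10 collagens 8 passed, with means from 311 counts (COL5A3) to 13654 counts (COL5A1). COL11A1, a chain of type XI collagen, held 5 and 3 counts in YT shNT, 1 count in each of TC shYEATS2 replicate 2 and YT shZZZ3 replicate 1 and none elsewhere. COL24A1, a chain of type XXIV collagen, held 0 to 2 counts per TC library and 1 to 9 per YT library, 31 counts in all. Neither was tested, and 3 counts, the floor used where a fold is given as a bound, corresponded to 0.106 to 0.173 CPM depending on the library. COL11A2, the partner chain of type XI, was looked up after the values were seen. It was present at 9.69 to 27.8 CPM and was called in none of the comparisons.

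To compare chains with each other, levels were divided by annotated exon length (CPM per kb). On that scale COL5A1, the main chain of type V collagen, made up most of the fibrillar collagen transcripts in every library, 57.4 to 76.5% of the sum over the 10 genes. Type V chains together took 63.4 to 81.3%. Type I chains held 15.2 to 17.2% in the 6 TC libraries and 2.80 to 8.02% in the 6 YT libraries, and these ranges do not overlap. COL5A1 alone thus exceeded the type I chains together in each of the 12 libraries. Chains of type II, the cartilage collagen, took 1.10 to 9.56% per length. Of the 6 chondrocyte markers, ACAN, CNMD, HAPLN1 and MATN1 were at 0 to 0.753 CPM. MATN3, a cartilage matrix protein, was present in every library at 8.37 to 20.6 CPM (198 to 496 counts), and SOX9, a transcription factor that also acts outside cartilage, at 63.8 to 132 CPM.

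**Figure D1:**
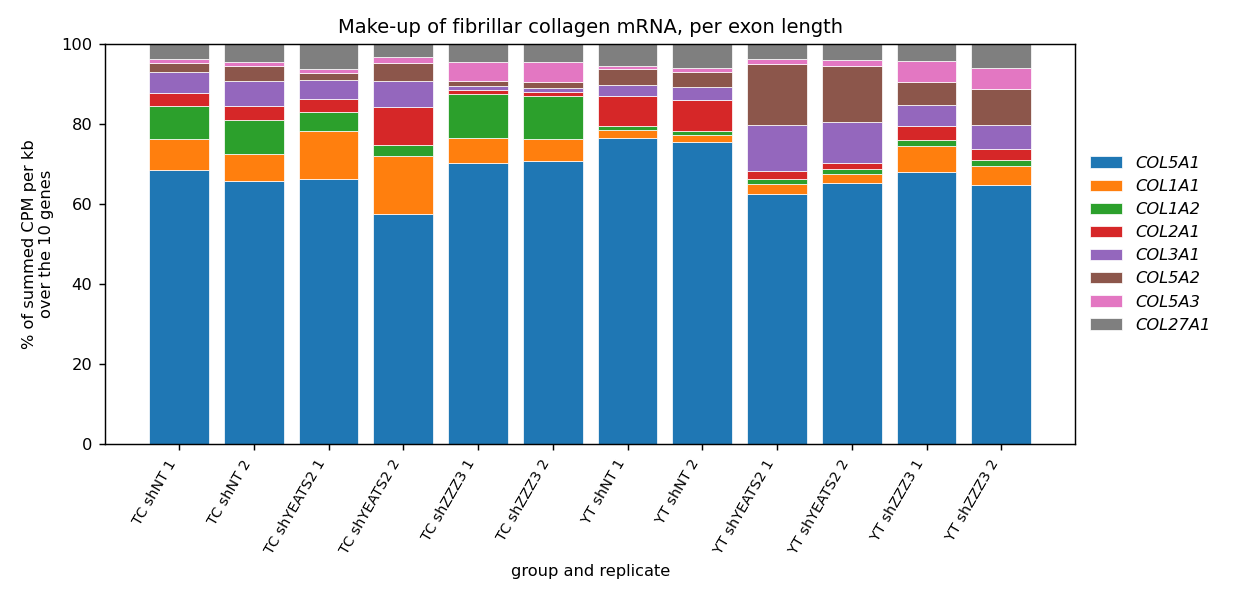
Share of each fibrillar collagen gene in the summed CPM per kb of the 10 genes, as stacked bars in percent for each of the 12 libraries. COL5A1 took 57.4 to 76.5% in each, and the type I chains were 15.2 to 17.2% in TC and 2.80 to 8.02% in YT libraries; COL11A1 and COL24A1 are too low to see.

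The next counts give how many of the 8 tested collagens passed an adjusted p of 0.05 beside the percentage of all 18415 genes that did, with edgeR's quasi-likelihood test and Benjamini-Hochberg adjustment throughout. The YEATS2 hairpin in the TC line gave 0 of 8 called, against 0.0434% of all genes. There, 3 of 8 had an unadjusted p under 0.05 by that test, as did 927 of all 18415 genes. DESeq2 called 2 of the 8 collagens, and 117 of 18057 over all genes. Without TC shYEATS2 replicate 1 that comparison gave 1 higher and 1 lower (0.369% of all genes), and without replicate 2 again 0 (0.418%). The ZZZ3 hairpin in the TC line gave 1 higher and 1 lower, against 1.53%. In the YT line the YEATS2 hairpin gave 2 higher and 1 lower (20.7% of all genes called), and the ZZZ3 hairpin 2 higher and 0 lower (10%). The difference between the lines in the response to the hairpin, an interaction term, was called for 3 collagens with the YEATS2 hairpin (9.37%) and 2 with the ZZZ3 hairpin (4.32%). Between YT and TC, 3 collagens were lower under shNT (9.23%), 3 were lower and 1 higher under shYEATS2 (12.2%), and 1 was lower and 2 higher under shZZZ3 (2.62%). Between hairpins, YT shZZZ3 exceeded YT shYEATS2 in 2 collagens (7.21%), and TC shZZZ3 exceeded TC shYEATS2 in 2 and fell below it in 3 (1.20%).

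Those comparisons share libraries and are not independent of each other. The median log2 change over the 8 collagens was 0.24 and -0.35 for the YEATS2 and ZZZ3 hairpins in the TC line and 0.13 and 0.67 in the YT line, while the medians over all genes lay between -0.013 and 0.010. The first of these was 0.56 without TC shYEATS2 replicate 1 and -0.20 without replicate 2. Called collagens moved in opposite directions within a comparison: with the ZZZ3 hairpin in the TC line COL3A1 fell and COL5A3 rose, and with the YEATS2 hairpin in the YT line COL3A1 and COL5A2 rose and COL2A1 fell. COL5A1 and COL27A1 were called in none of the 11 comparisons.

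**Figure D2:**
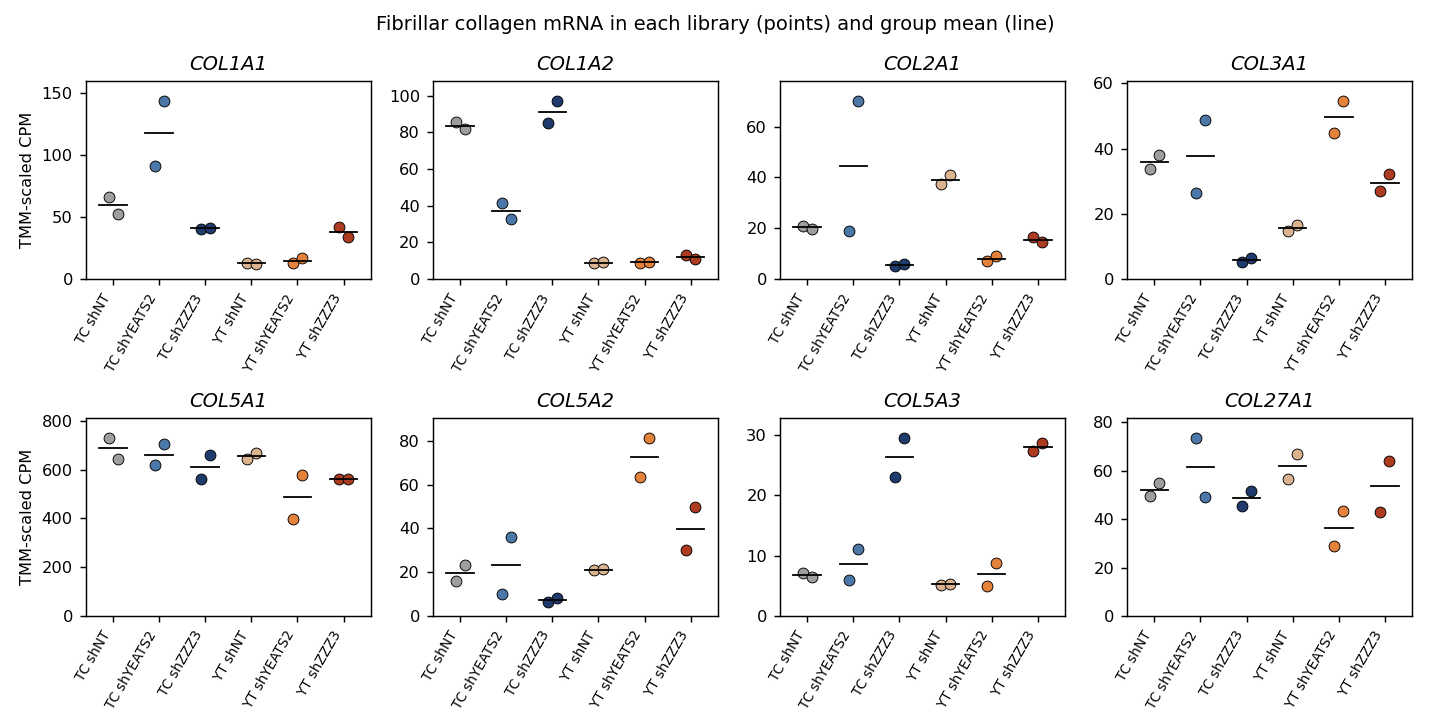
Level of each of the 8 tested collagens in CPM (linear axes from 0) in the 6 groups, with a point per library and a line at the mean of the 2 libraries. COL1A1 and COL1A2 lie higher in the TC than the YT groups under shNT, and COL5A3 is high in the shZZZ3 groups at 23 to 29.6 CPM.

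COL1A1 and COL1A2 encode the chains of type I collagen, COL1A1 on chromosome 17 (50184101 to 50201632) and COL1A2 on chromosome 7 (94394895 to 94431227; GRCh38 throughout, GENCODE 44). COL1A1 was measured in the TC line at 66.5 and 52.5 CPM under shNT, 91.1 and 144 under shYEATS2 and 40.2 and 41.6 under shZZZ3, and in the YT line at 13.3 and 12.3 CPM under shNT, 12.9 and 17.2 under shYEATS2 and 42.3 and 34.0 under shZZZ3. COL1A2 was measured in the TC line at 85.4 and 81.9 CPM under shNT, 41.5 and 32.6 under shYEATS2 and 85.2 and 97.2 under shZZZ3, and in the YT line at 8.71 and 9.20 CPM under shNT, 8.87 and 9.45 under shYEATS2 and 13.2 and 11.1 under shZZZ3. COL1A2 was above 32 CPM in all 6 TC libraries and below 14 in all 6 YT libraries, while for COL1A1 the YT shZZZ3 libraries overlapped the TC shZZZ3 libraries.

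In the TC line, the YEATS2 hairpin placed the type I chains on opposite sides of their controls. COL1A1 was higher in both libraries (log2 change 0.98 ± 0.25 SE, adjusted p = 0.280) and COL1A2 lower in both (-1.17 ± 0.19, adjusted p = 0.0632), and neither passed edgeR's quasi-likelihood test with Benjamini-Hochberg adjustment. COL1A2 passed it without TC shYEATS2 replicate 1 (adjusted p = 0.0328) and without YT shZZZ3 replicate 2 (0.0482), and with DESeq2 (8.69e-06). Without TC shYEATS2 replicate 2 its log2 change was -1.03. COL1A1 passed with DESeq2 (0.0388) and with no filter on low counts (0.0247), and its log2 change was 1.25 without TC shYEATS2 replicate 1 and 0.59 without replicate 2. With the ZZZ3 hairpin in the YT line, COL1A1 was 1.57 ± 0.25 higher, and COL1A2 was 0.44 ± 0.20 higher without passing (adjusted p = 0.189). The response of COL1A1 to the ZZZ3 hairpin differed between the lines by 2.11 ± 0.35 on the log2 scale (adjusted p = 0.00798), and by 2.09 without YT shNT replicate 2, where the adjusted p was 0.0511. The response of COL1A2 to the YEATS2 hairpin differed by 1.20 ± 0.27 (adjusted p = 0.0170), with a log2 change of 0.03 ± 0.20 in the YT line. That call was lost without either YT shNT library or either YT shYEATS2 library (adjusted p 0.0519 to 0.0753), and it held without TC shYEATS2 replicate 1 (1.41) or 2 (1.07).

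The ratio of COL1A1 to COL1A2 per exon length lay below 1 in some groups and above 1 in others. In the TC line it was 0.934 and 0.769 under shNT, 2.64 and 5.29 under shYEATS2 and 0.567 and 0.514 under shZZZ3. In the YT line it was 1.83 and 1.61 under shNT, 1.75 and 2.18 under shYEATS2 and 3.85 and 3.67 under shZZZ3. Mature type I collagen carries more of the COL1A1 chain than of the COL1A2 chain, as background. The transcripts differ in base composition, with 61.5% G or C in COL1A1 and 41.7% in COL1A2, so the ratio is read between groups and not as a count of molecules. No test was run on it.

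**Figure D3:**
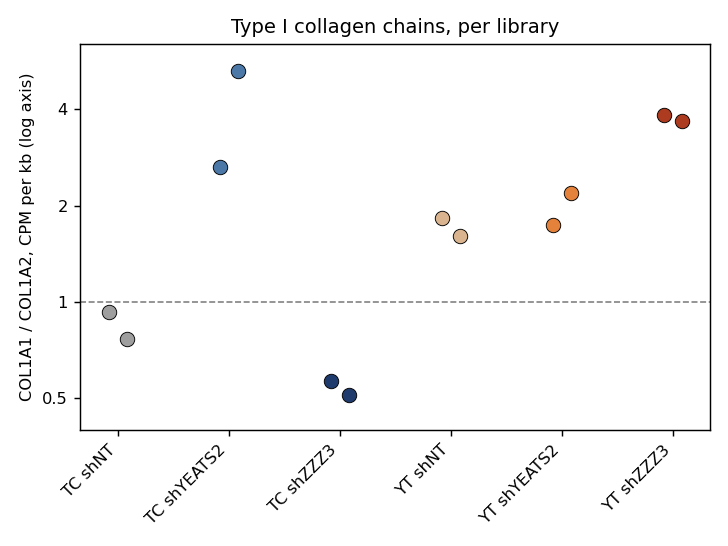
Ratio of COL1A1 to COL1A2 in CPM per kb for each of the 12 libraries, on a log axis with a dashed line at 1. The 4 TC shNT and TC shZZZ3 libraries lie below 1 and the other 8 above it, from 1.61 to 5.29.

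COL3A1, the chain of type III collagen, and COL5A2, the second chain of type V collagen, are neighbours on chromosome 2. COL3A1 (188974373 to 189012746) runs on the plus strand and COL5A2 (189031898 to 189225312) on the minus strand, tail to tail with 19151 bases between them. COL3A1 was measured in the TC line at 33.6 and 38.1 CPM under shNT, 26.3 and 48.9 under shYEATS2 and 5.24 and 6.41 under shZZZ3, and in the YT line at 14.9 and 16.7 CPM under shNT, 44.8 and 54.6 under shYEATS2 and 27 and 32.1 under shZZZ3. COL5A2 was measured in the TC line at 15.9 and 23.4 CPM under shNT, 10.2 and 36.2 under shYEATS2 and 6.21 and 7.96 under shZZZ3, and in the YT line at 20.9 and 21.3 CPM under shNT, 63.3 and 81.4 under shYEATS2 and 29.9 and 49.9 under shZZZ3. By group mean both were lowest in TC shZZZ3 and highest in YT shYEATS2, though for COL3A1 the YT shYEATS2 and TC shYEATS2 libraries overlapped. Their levels on the log2 scale correlated with r = 0.814 over the 12 libraries, the highest of the 28 pairs of tested collagens, which ranged down to -0.727 (COL1A2 with COL5A2) with a median of 0.121; the points share groups and controls, and this is a description.

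COL3A1 fell by 2.61 ± 0.29 on the log2 scale in TC shZZZ3 against TC shNT (adjusted p = 0.00148, edgeR's quasi-likelihood test with Benjamini-Hochberg adjustment), and this call held in all 21 alternative analyses. It rose in YT shYEATS2 by 1.65 ± 0.28 (adjusted p = 0.00197), also in all 21. In YT shZZZ3 it was higher in both libraries by 0.90 ± 0.28 and did not pass (adjusted p = 0.0626); it passed without either TC shNT library (0.0404 and 0.0412) or either TC shYEATS2 library (0.0176 and 0.0180), and with DESeq2 (0.0222). The response of COL3A1 to the ZZZ3 hairpin differed between YT and TC by 3.51 ± 0.40 on the log2 scale (adjusted p = 0.00108), the largest such difference among the 8 collagens, and the response to the YEATS2 hairpin by 1.58 ± 0.39 (adjusted p = 0.0252). The latter was 2.12 without TC shYEATS2 replicate 2 and was lost without TC shYEATS2 replicate 1 (1.23, adjusted p = 0.0509), either YT shNT library (0.112 and 0.0800) or either YT shYEATS2 library (0.0619 and 0.112).

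COL5A2 rose in YT shYEATS2 by 1.77 ± 0.47 on the log2 scale (adjusted p = 0.0218, edgeR's quasi-likelihood test with Benjamini-Hochberg adjustment), a call lost when any 1 of the 4 libraries compared was left out (adjusted p 0.0687 to 0.137). The mesenchymal markers summed to 2792 and 2864 CPM in YT shYEATS2 against 1888 and 2018 CPM in YT shNT, with 2 of 6 called higher and 2 lower, and their part in the rise of COL3A1 and COL5A2 there was not tested. The response of COL5A2 to the YEATS2 hairpin differed between the lines by 1.54 without passing (adjusted p = 0.176), and by 2.75 without TC shYEATS2 replicate 2, where it passed (0.00705). In TC shZZZ3 it was lower in both libraries by a log2 change of -1.46 ± 0.48 without passing (adjusted p = 0.224), and it passed without TC shYEATS2 replicate 1 (0.0353) or 2 (0.0360). Its response to the ZZZ3 hairpin differed between the lines by 2.37 ± 0.67 (adjusted p = 0.0756), and that difference passed without TC shYEATS2 replicate 1 (0.00985) or 2 (0.00994). Its share of the fibrillar collagen transcripts per length was 14.0 to 15.2% in YT shYEATS2 and 1.18 to 8.77% in the other groups. Both COL5A1 and COL5A2 encode chains of type V collagen. Per length, COL5A1 exceeded COL5A2 by 12.8 to 59.4 times in the TC libraries. In the YT line it did so by 20.3 and 20.5 times under shNT, 4.12 and 4.67 under shYEATS2 and 12.3 and 7.38 under shZZZ3.

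**Figure D4:**
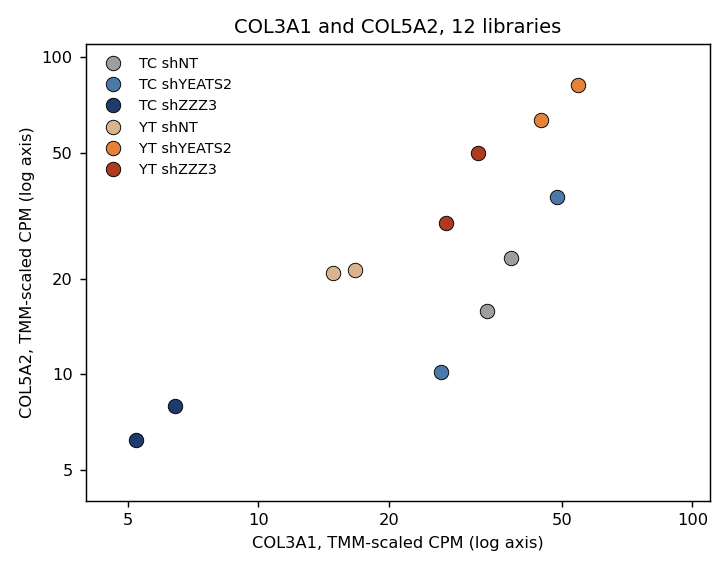
COL3A1 against COL5A2 in CPM for the 12 libraries, both axes logarithmic and points coloured by group. TC shZZZ3 lies at the lower left (5.24 and 6.41 CPM of COL3A1) and YT shYEATS2 at the upper right (44.8 and 54.6 CPM).

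Within 1 megabase of the pair, 10 of 11 other protein-coding genes were tested, a window chosen after the pair's values were seen. Of these, SLC40A1, the iron exporter ferroportin, was the only gene called in any of the 4 knock-down comparisons, the 2 interactions or YT shNT against TC shNT. It fell by 2.0 ± 0.31 on the log2 scale in YT shZZZ3 (adjusted p = 0.00228 by the same test), opposite to the sign of COL3A1 and COL5A2 there, and under shNT it was 3.36 ± 0.34 higher in the YT line (adjusted p = 1.62e-04).

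COL2A1 encodes the chain of type II collagen (chromosome 12, 47972967 to 48004554). It was measured in the TC line at 21.1 and 19.8 CPM under shNT, 18.9 and 70.1 under shYEATS2 and 5.28 and 6.15 under shZZZ3, and in the YT line at 37.4 and 40.8 CPM under shNT, 7.03 and 8.98 under shYEATS2 and 16.5 and 14.5 under shZZZ3. The TC shYEATS2 libraries lay on either side of their controls, and each of the other 3 hairpin groups lay below its control in both libraries. COL2A1 fell by 2.28 ± 0.46 on the log2 scale in YT shYEATS2 (adjusted p = 0.00523, edgeR's quasi-likelihood test with Benjamini-Hochberg adjustment), a call lost without YT shYEATS2 replicate 1 (-2.10, adjusted p = 0.0698). The sum of the chondrocyte markers moved the other way there, from 79.9 and 83.4 CPM to 145 and 153 CPM. Most of that sum was SOX9, at 63.8 to 132 CPM over the 12 libraries. MATN3 was at 8.37 to 20.6 CPM and the other markers at most 0.753 CPM each. Of the 3 tested, SOX9 was called higher (log2 change 0.99 ± 0.15, adjusted p = 9.89e-04 by the same test) and 2 were not called. The part of these markers in the COL2A1 result was not tested. The log2 change was -1.33 ± 0.44 in YT shZZZ3 (adjusted p = 0.0823) and -1.83 ± 0.46 in TC shZZZ3 (adjusted p = 0.0909). Both passed without TC shYEATS2 replicate 1 (0.00238 and 0.00154) or replicate 2 (0.00260 and 0.00166), libraries that enter these 2 comparisons only through the shared spread. The response to the YEATS2 hairpin differed between the lines by a log2 change of -3.39 ± 0.63 (adjusted p = 0.00631). That difference was -4.02 without TC shYEATS2 replicate 1 and -2.14 without replicate 2 (adjusted p = 0.00190), and without YT shYEATS2 replicate 1 it was -3.20 and did not pass (0.0516). In the TC line itself the log2 change with the YEATS2 hairpin was 1.11 ± 0.44 (adjusted p = 0.817), 1.75 without replicate 1 (0.0157) and -0.13 without replicate 2. Replicate 2 is the library with the high endothelial marker sum, whose part in this result was not tested.

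COL5A3 encodes a further chain of type V collagen, present in part of the molecules of some tissues (chromosome 19, 9959561 to 10010504, minus strand). It was measured in the TC line at 7.06 and 6.5 CPM under shNT, 5.89 and 11.2 under shYEATS2 and 23 and 29.6 under shZZZ3, and in the YT line at 5.07 and 5.35 CPM under shNT, 4.99 and 8.72 under shYEATS2 and 27.3 and 28.6 under shZZZ3. All 4 shZZZ3 libraries were above 22 CPM and the other 8 below 12. COL5A3 rose in YT shZZZ3 by 2.40 ± 0.34 on the log2 scale (adjusted p = 0.00150, edgeR's quasi-likelihood test with Benjamini-Hochberg adjustment), held in all 21 alternative analyses, and in TC shZZZ3 by 1.94 ± 0.33 (adjusted p = 0.0144). The TC call was lost when any 1 of the 4 libraries compared was left out, with log2 changes of 1.75 to 2.11 and adjusted p 0.0602 to 0.143. The difference between the lines was 0.47 ± 0.46 (adjusted p = 0.693) and did not pass, which does not show that the responses were alike. The ZZZ3 transcript itself did not pass the test in TC shZZZ3, and the endothelial markers were also higher in YT shZZZ3 (150 and 151 CPM) than in YT shNT (47.5 and 49.2 CPM) but not in TC shZZZ3 (63 and 59.8 CPM) against TC shNT (83.0 and 99.3 CPM); their part in the COL5A3 and COL1A1 results was not tested. Antisense lncRNAs overlap 270 exonic bases of COL5A3, 59 of COL1A1 and 54 of COL5A1, and whether strand was used in counting is not given in the sources used here.

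COL5A1 (chromosome 9, 134641803 to 134844843), the most abundant chain, was called in no comparison. It was measured in the TC line at 732 and 646 CPM under shNT, 618 and 705 under shYEATS2 and 563 and 662 under shZZZ3, and in the YT line at 646 and 667 CPM under shNT, 397 and 580 under shYEATS2 and 561 and 561 under shZZZ3. The log2 changes with the hairpins (YEATS2, then ZZZ3) were -0.06 ± 0.20 and -0.17 ± 0.20 in the TC line and -0.43 ± 0.20 and -0.23 ± 0.20 in the YT line. COL27A1, the chain of type XXVII collagen, a fibrillar collagen of cartilage and other developing tissues, was measured in the TC line at 49.6 and 54.9 CPM under shNT, 73.8 and 49.4 under shYEATS2 and 45.4 and 51.7 under shZZZ3, and in the YT line at 56.5 and 67.1 CPM under shNT, 29.1 and 43.5 under shYEATS2 and 42.9 and 64.2 under shZZZ3. Its log2 change in YT shYEATS2 was -0.77 ± 0.27 (adjusted p = 0.0663, edgeR's quasi-likelihood test with Benjamini-Hochberg adjustment), with both libraries below both controls, and it passed without YT shZZZ3 replicate 1 (0.0427) or 2 (0.0417) and with DESeq2 (0.0467). COL5A1 passed in that comparison with a GC trend removed (-0.63, adjusted p = 0.0492).

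**Figure D5:**
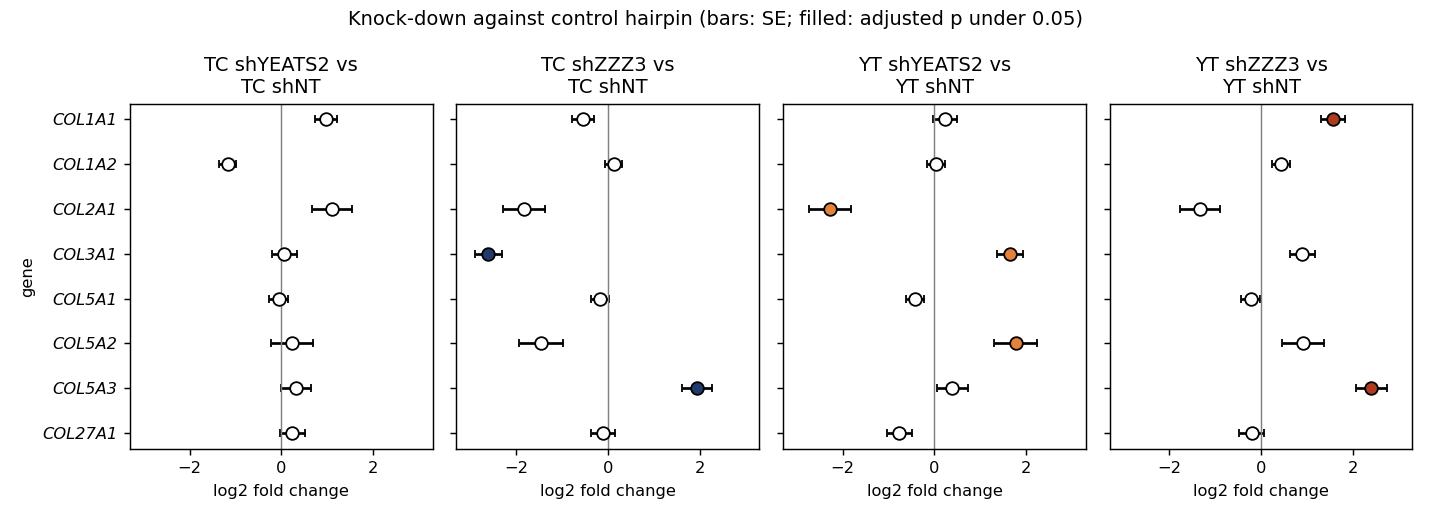
Log2 fold change ± SE of the 8 tested collagens against shNT of the same line for the YEATS2 and ZZZ3 hairpins in the TC and YT lines, with filled points for adjusted p under 0.05. No point is filled for the YEATS2 hairpin in the TC line, and COL5A3 is filled for the ZZZ3 hairpin in both lines (1.94 and 2.40).

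Between the lines, the type I chains and COL3A1 differed under shNT. COL1A2 had the largest fold among the collagens there, 0.108 times the TC level in YT, and COL3A1 was lower in YT shNT by a log2 change of -1.18 ± 0.28 (adjusted p = 0.0218, edgeR's quasi-likelihood test with Benjamini-Hochberg adjustment), lost without YT shNT replicate 1 (0.175) or 2 (0.118). Under shYEATS2, 3 collagens were lower in YT, with log2 changes of -2.96 ± 0.26 for COL1A1, -2.01 ± 0.20 for COL1A2 and -2.46 ± 0.46 for COL2A1, and COL5A2 was higher by 1.65 ± 0.47 (adjusted p = 0.0415). Without TC shYEATS2 replicate 1 or 2 these were -3.25 and -2.60 for COL1A1, -1.83 and -2.17 for COL1A2 and -3.12 and -1.24 for COL2A1, and all 3 still passed. The COL2A1 difference did not pass without YT shYEATS2 replicate 1 (adjusted p = 0.0800) or with only the groups compared in the fit (0.0975). The COL5A2 difference ranged from 0.99 without TC shYEATS2 replicate 1 (adjusted p = 0.158) to 2.82 without replicate 2, and 10 of 21 alternatives lost it. Under shZZZ3, COL1A2 was lower in YT, with a log2 change of -2.90 ± 0.20, while COL3A1 was higher by 2.33 ± 0.29 (adjusted p = 0.00177) and COL5A2 by 2.48 ± 0.49 (adjusted p = 0.0211). The COL5A2 call was lost without TC shZZZ3 replicate 1 (0.237) or 2 (0.158), YT shZZZ3 replicate 2 (0.0928), or either YT shYEATS2 library (both 0.0520). COL3A1 thus stood lower in YT than in TC under shNT and higher under shZZZ3. The summed endothelial markers stood the same way, 47.5 and 49.2 CPM in YT against 83.0 and 99.3 in TC under shNT (1 of 4 called lower), and 150 and 151 against 63 and 59.8 under shZZZ3 (1 of 4 called higher). Their part in the COL3A1 result was not tested. COL2A1 did not pass under shNT (0.93 ± 0.44, adjusted p = 0.219) or shZZZ3 (1.43 ± 0.46, adjusted p = 0.152), but passed in both without TC shYEATS2 replicate 1 (0.0161 and 0.00322) or 2 (0.0173 and 0.00342).

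The 2 hairpins were also compared with each other, though the ZZZ3 transcript itself did not pass between them in the YT line (log2 change -0.56). In the YT line, COL1A1 was higher with shZZZ3 than with shYEATS2 by 1.34 ± 0.25 and COL5A3 by 2.02 ± 0.33 on the log2 scale (adjusted p = 0.00792 and 0.00366, edgeR's quasi-likelihood test with Benjamini-Hochberg adjustment). Both calls were lost without YT shYEATS2 replicate 1 (0.112 and 0.0657). In the TC line, COL1A2 and COL5A3 were higher with shZZZ3 by 1.29 ± 0.19 and 1.62 ± 0.33, and COL1A1, COL2A1 and COL3A1 were lower, with log2 changes of -1.52 ± 0.25, -2.94 ± 0.47 and -2.67 ± 0.29. Without TC shZZZ3 replicate 1 or 2, COL1A1 (0.209 and 0.164), COL1A2 (0.0766 and 0.133), COL2A1 (0.203 and 0.158) and COL5A3 (0.186 and 0.319) did not pass, nor did any of the 5 with only the groups compared in the fit (0.0508 to 0.178). COL5A3 also did not pass without TC shYEATS2 replicate 1 (1.22, adjusted p = 0.118) or any of the 4 YT shNT and YT shYEATS2 libraries (0.0509 to 0.0812), and its log2 change was 2.13 without TC shYEATS2 replicate 2. Without TC shYEATS2 replicate 1 or 2, COL1A1 was at -1.82 and -1.16, COL1A2 at 1.47 and 1.12, COL2A1 at -3.61 and -1.73 and COL3A1 at -3.06 and -2.17, each past the threshold. COL5A2 did not pass (-1.69, adjusted p = 0.147) but did without TC shYEATS2 replicate 1 (-2.35, 0.00995). COL3A1 passed without each of the 12 libraries in turn.

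For each tested collagen, the 3 genes most alike over the 12 libraries were found by Pearson correlation of log2 CPM, as a description of shared level and nothing more; 13250 genes averaging 50 counts or more were compared. COL5A2 had the closest, HMCN1 (hemicentin, a matrix protein), COL8A1 (a short-chain collagen) and SEMA3C (a secreted guidance cue), at r = 0.978, 0.975 and 0.971. COL1A2 was most like APCDD1, TPPP3 and ADGRA2 (0.956 to 0.922). For COL3A1 they were IDO1, PCSK1 and SIM2 (0.932 to 0.911). COL5A3 was most like KCNA1, MAMLD1 and DRD2 (0.922 to 0.907), COL5A1 most like HAP1, ADAMTS10 and ZNF213-AS1 (0.904 to 0.875) and COL27A1 most like TMEM74B, PPP1R26-AS1 and ZNF789 (0.906 to 0.872). None of the genes named here was a nearest gene of more than 1 collagen.

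The genes that make, process and organise fibrils were read through 11 lists of 112 genes, 101 of them tested. In the TC line, 0 of 101 passed with the YEATS2 hairpin and 1 with the ZZZ3 hairpin, PRRX1, a mesenchymal transcription factor (log2 change 2.67 ± 0.54, adjusted p = 0.0252, edgeR's quasi-likelihood test with Benjamini-Hochberg adjustment), lost in 8 of 21 alternatives: without any 1 of the 4 libraries compared (0.0533 to 0.159), without YT shNT replicate 1 (0.0515) or either YT shYEATS2 library (0.0665 and 0.0662), and with library totals only (0.0535). Over all genes 0.0434% and 1.53% were called in these comparisons. In the YT line, 15 were higher and 14 lower with the YEATS2 hairpin (20.7% of all genes called), and 11 higher and 12 lower with the ZZZ3 hairpin (10%). The median log2 change over the 101 genes was 0.19 and -0.04. Against TC shNT, YT shNT had 8 higher and 9 lower (9.23%). The interactions gave 12 higher and 5 lower for YEATS2 (9.37%) and 4 higher and 5 lower for ZZZ3 (4.32%). Between YT and TC, 21 were higher and 10 lower under shYEATS2 (12.2%), and 2 higher and 4 lower under shZZZ3 (2.62%). With shZZZ3 against shYEATS2, 4 were higher and 6 lower in the YT line (7.21%), and 1 higher and 2 lower in the TC line (1.20%). In an alternative chosen after seeing the data, TC shYEATS2 replicate 1 or 2 was left out. The median log2 change over the 101 genes was then -0.039 and -0.10 for the YEATS2 hairpin in TC (-0.022 with both libraries). For its interaction it was 0.11 and 0.26 (0.18 with both). For YT against TC under shYEATS2 it was 0.18 and 0.24 (0.15 with both), and for shZZZ3 against shYEATS2 in TC 0.069 and 0.14 (0.11 with both).

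By role, the YEATS2 and ZZZ3 hairpins in the YT line and the comparison of YT shNT with TC shNT gave these counts, beside 20.7%, 10% and 9.23% of all genes called. Of 14 genes of prolyl hydroxylation and folding, 2 were higher and 4 lower, then 3 and 2, then 2 and 2. Of 5 lysyl hydroxylation and glycosylation genes, 0 changed, then 1 was higher, then 0 changed. Of 8 genes for procollagen secretion, 0 were higher and 2 lower, then 0 and 2, then 1 and 0. Of 8 tested propeptide processing genes, 0 were higher and 1 lower, then 1 and 0, then 0 and 3, and of 5 cross-linking genes 1 and 1, then 0 and 1, then 1 and 1. Of 7 tested fibril-associated collagens, 2 and 2, then 1 and 2, then 1 and 1 passed, and of 4 tested fibril-binding proteoglycans 1 higher, then 1 higher, then none. Collagen receptors and uptake genes, 8 tested, gave 1 and 1, then 1 and 1, then 2 and 1. Collagen degradation genes, 5 tested, gave 0 and 1, then 0 and 1, then 1 and 0. The 16 genes of TGF-beta ligands, receptors and SMADs gave 2 and 1, then 1 and 2, then 0 and 1, and the 21 tested transcription factors 6 and 1, then 2 and 1, then 0 and 0.

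The named members of these lists were those with the largest changes. With the YEATS2 hairpin in the YT line, ADAMTS2, the procollagen N-proteinase, fell by 3.27 ± 0.35 on the log2 scale (adjusted p = 1.04e-04, edgeR's quasi-likelihood test with Benjamini-Hochberg adjustment), and TWIST1, a mesenchymal transcription factor, rose by 1.98 ± 0.27 (adjusted p = 4.52e-04). COL22A1, a fibril-associated collagen, went from 32 and 25 counts to 0 and 0, at least 9.29-fold lower against the floor of 3 counts per library. LOXL1, a cross-linking enzyme, went from 11 and 6 counts to 0 and 1. With the ZZZ3 hairpin, the log2 change was -2.35 ± 0.43 for COL22A1, -1.89 ± 0.28 for COL14A1, another fibril-associated collagen, -1.42 ± 0.27 for DDR2, a collagen receptor, and 1.37 ± 0.27 for TWIST1. In YT shNT against TC shNT, MMP1, the interstitial collagenase, was higher by 2.67 ± 0.65, COL22A1 by 2.57 ± 0.45 and LOX, a cross-linking enzyme, by 2.34 ± 0.34, while LOXL1 was lower, with a log2 change of -2.23 ± 0.46. Calls were lost for DDR2 without YT shNT replicate 1 (adjusted p = 0.0733) or YT shZZZ3 replicate 1 (0.0520), and for TWIST1 with the ZZZ3 hairpin without YT shNT replicate 1 (0.0909) or 2 (0.0590). MMP1 did not pass without TC shNT replicate 1 (0.116), YT shNT replicate 1 (0.0644) or 2 (0.142). LOXL1 did not pass between the lines without TC shNT replicate 1 (0.0520) or YT shNT replicate 2 (0.0986), nor with the YEATS2 hairpin without YT shNT replicate 1 (0.0755) or YT shYEATS2 replicate 1 (0.0855).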

How the data were processed

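RNA from 12 SW872 libraries was prepared with a stranded mRNA kit. Per the study's methods, reads were handled in bcbio-nextgen with HISAT2 alignment to hg38 and with Salmon and tximport, and bcl2fastq is named in the submitters' processing notes. Which of these made the deposited gene counts, and with which strand setting, is not given in the sources used here. The values used are the whole-number read counts per gene that the authors deposited, with no normalization, 58735 genes per library and 17451893 to 29294805 counts each.

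Of the gene identifiers, 99.1% matched GENCODE 44 (GRCh38), which gave symbols, coordinates and union exon lengths. The 18415 genes averaging 5 counts or more over the libraries were tested with edgeR 4.0.16 in R 4.3.3 by the quasi-likelihood test with TMM scaling, 6 groups in 1 fit (6 residual degrees of freedom), two-sided, with Benjamini-Hochberg adjustment over all genes tested, and called at an adjusted p of 0.05. The study's methods name DESeq2, run here as an alternative (version 1.42.0) beside edgeR as the main test. The fit was also run on simulated counts drawn from its own estimates of spread. These held no effect shared by same-numbered libraries, so the run cannot speak to such an effect. CPM is TMM-scaled, per kb where genes are compared, and counts of 0 were kept as 0. A floor of 3 counts was used only for the bound on a fold, for list genes at or under it. That floor covers counting error only, while standard errors come from the fit and include the spread between libraries.

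All 10 collagens are named, with the 4 largest called genes of the related lists in 5 comparisons and the 3 genes most alike each tested collagen, those of COL1A1 and COL2A1 not being reported here. The members, the lists and the markers were chosen with earlier results of these data known. Deviations of same-numbered libraries from their group means correlated between groups with r from -0.438 to 0.898, over 0.1 in 7 of 15 pairs. The labels do not say that the number marks a shared batch, so the main fit did not pair the samples. Replicates of each group differed beyond sampling noise, with chi-square from 9.82 (TC shZZZ3) to 95.7 (TC shNT) per degree of freedom. Alternatives covered DESeq2, other scalings, count filters, the groups fitted, GC content, a replicate block and leaving out each library.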

Additional observations from a re-analysis of the deposited data

Results flagged for a closer look

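Of the results above, 5 were picked out because the response to a hairpin differed between the YT and TC lines by an interaction term, tested with edgeR's quasi-likelihood test and Benjamini-Hochberg adjustment over all genes. With the YEATS2 hairpin, the log2 change in YT minus that in TC was 1.20 for COL1A2, -3.39 for COL2A1 and 1.58 for COL3A1. With the ZZZ3 hairpin, it was 2.11 for COL1A1 and 3.51 for COL3A1. The YEATS2 interaction was called for 9.37% of all genes tested and the ZZZ3 interaction for 4.32%. No group held 4 or more libraries, so no library could be tested as an outlier within its group.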

How the results depend on the processing

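Over 1848 recomputed log2 changes of the tested collagens, 1664 kept their direction and side of the threshold. Of the rest, 61 were no longer past it, 85 were newly past it and 38 reversed. Each reversal was of a log2 change that was not called. COL1A2 with the YEATS2 hairpin in YT was -0.016 with library totals only. COL3A1 with the YEATS2 hairpin in TC was -0.033 with the replicate block and GC trend removed. COL5A1 in the ZZZ3 interaction was 0.022 with no filter on low counts, and in YT shNT against TC shNT 0.088 with the GC trend removed and 0.11 with the replicate block added. COL5A3 in the YEATS2 interaction was -0.13 with the GC trend removed, -0.11 with the replicate block added and -0.000410 with library totals only. The cause was not tested.

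Leaving out 1 library at a time reversed further uncalled log2 changes, given here by their lowest and highest values. With the YEATS2 hairpin in TC, COL2A1 ranged from -0.13 to 1.75, COL3A1 from -0.47 to 0.43, COL5A1 from -0.18 to 0.024, COL5A2 from -0.96 to 0.86, COL5A3 from -0.22 to 0.69 and COL27A1 from -0.10 to 0.48. With hairpins in YT, COL1A2 ranged from -0.011 to 0.087 and COL5A3 from -0.056 to 0.75 (YEATS2), and COL27A1 from -0.53 to 0.10 (ZZZ3). Between YT and TC, COL5A2 ranged from -0.17 to 0.38 (shNT), COL5A3 from -0.76 to 0.21 (shYEATS2), and under shZZZ3 COL1A1 from -0.23 to 0.040, COL5A3 from -0.080 to 0.28 and COL27A1 from -0.19 to 0.44. In the interactions, COL5A3 ranged from -0.36 to 0.62 (YEATS2), COL5A1 from -0.17 to 0.081 and COL27A1 from -0.40 to 0.22 (ZZZ3). Between hairpins, COL5A1 ranged from -0.23 to 0.0015 in TC and from -0.037 to 0.52 in YT. A group left with 1 library was assumed to vary like the others.

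The number of collagens called moved past 1.5 times as follows, each beside the number called over all genes in the same setting. The genes tested were 18415, or 32987 with no filter. With the YEATS2 hairpin in TC (0, all genes 8), DESeq2 called 2 (117 of 18057) and no filter 3 (213). There the replicate block called 1 (28) and the block with GC trend removed 2 (117). With the ZZZ3 hairpin in TC (2, all genes 281), DESeq2 (532), no filter (744) and the block with GC trend removed (960) called 4 each. With the YEATS2 hairpin in YT (3, all genes 3821), GC trend removed called 5 without the block (5855) and with it (6638). With the ZZZ3 hairpin in YT (2, all genes 1846), DESeq2 (2355 of 18057) and the block with GC trend removed (4505) called 4. No filter called 5 there (2682). The YEATS2 interaction (3, all genes 1725) gave 7 with the block and GC trend removed (4448). Fitting only the groups compared gave 0 (42) for TC shZZZ3 against TC shYEATS2 (5, all genes 221). It gave 2 (2357) for YT against TC under shYEATS2 (4, all genes 2242). No filter gave 4 (2322) for YT shZZZ3 against YT shYEATS2 (2, all genes 1327).

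Leaving out each library gave 0 to 2 and 1 to 4 called for the YEATS2 and ZZZ3 hairpins in TC, 1 to 4 and 2 to 4 in YT, 0 to 4 and 1 to 3 for the interactions, 2 to 4 for YT against TC under each hairpin, 0 to 3 between hairpins in YT and 1 to 5 in TC. The replicate block alone removed no call of a collagen and added 8. Over all genes it called more in every comparison, such as 4656 against 3821 with the YEATS2 hairpin in YT. Whether replicate numbers mark a shared batch is not stated, so the block is given as an alternative fit.

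Counts over all genes varied more. Across the other settings, the YEATS2 and ZZZ3 hairpins in TC called 4 to 213 (8) and 157 to 960 (281), in YT 2941 to 8719 (3821) and 1394 to 4505 (1846), the interactions 1274 to 4448 (1725) and 606 to 2559 (795), YT against TC 941 to 4144 (1699), 1490 to 5301 (2242) and 279 to 1408 (482), and between hairpins 895 to 3654 in YT (1327) and 42 to 933 in TC (221). COL11A1 and COL24A1 fell under the filter on mean counts, and the part of sequencing depth in this was not tested.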
